A study of Mus musculus with 2 samples.

Results

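The ubiquitin-conjugating E2 enzymes were taken as every gene entry whose symbol starts with Ube2, leaving out Ube2o, Ube2h, Ube2l6 and symbols with -ps, which gave 37 members among 43346 mouse gene entries. Of these 37 members, 34 were annotated as protein coding; Ube2nl and Ube2d4 were processed pseudogenes and Ube2uos an antisense RNA of Ube2u. Polyadenylated RNA was sequenced from G1E-ER4, an immortalized mouse erythroid line in which Gata1 function is restored through a GATA1 protein fused to an estrogen receptor domain. The only group held cells kept in 10 nM 17beta-estradiol for 24 h, which switches on the fusion and starts erythroid differentiation, with 2 libraries named replicate 1 and replicate 2. The labels tie both libraries to a single biosample record, which leaves it unknown whether their spread is biological or technical. Untreated cells were not analysed here.

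E2 enzymes stand in the middle of the ubiquitin cascade: an E1 enzyme activates ubiquitin, the E2 takes it onto a cysteine of its active site, and an E3 ligase brings the charged E2 to the substrate. The choice of E2 helps to set which kind of chain is built, and some E2s carry a related modifier such as NEDD8 in place of ubiquitin. In maturing red cell precursors ubiquitin tagging is known for the removal of proteins and organelles that the erythrocyte does not keep.

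The stretch that carries the chemistry is shown for 7 members on which the results below turn. They are the 3 highest members Ube2s, Ube2m and Ube2c, with Ube2l3 and the catalytic K63-chain E2 gene Ube2n. Ube2d3 is shown beside its close relative Ube2d1, which had no counts. Each line is 45 bases of coding sequence from GENCODE M21 on GRCm38 (mm10), 5′ to 3′ on the coding strand. Capitals mark the codons of the conserved His-Pro-Asn motif at the start and the codon of the cysteine that 7 residues separate from it, which accepts ubiquitin or its relative.
Ube2s: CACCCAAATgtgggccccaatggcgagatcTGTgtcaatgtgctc
Ube2c: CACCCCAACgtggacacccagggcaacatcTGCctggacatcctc
Ube2m: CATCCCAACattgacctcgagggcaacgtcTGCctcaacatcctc
Ube2l3: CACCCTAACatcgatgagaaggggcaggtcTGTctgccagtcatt
Ube2n: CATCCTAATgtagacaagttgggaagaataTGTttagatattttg
Ube2d3: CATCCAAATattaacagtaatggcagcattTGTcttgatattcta
Ube2d1: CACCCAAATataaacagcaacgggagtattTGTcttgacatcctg

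These windows belong to Ube2s (chr7:4794546-4812590, minus strand), Ube2c (chr2:164769898-164778822, plus strand) and Ube2m (chr7:13035120-13038275, minus strand). The others lie in Ube2l3 (chr16:17152013-17202649, minus strand), Ube2n (chr10:95515145-95545657, plus strand), Ube2d3 (chr3:135438149-135468198, plus strand) and Ube2d1 (chr10:71254980-71285262, minus strand). The coordinates are those of the whole gene, since the coding sequence is spliced. The 3 highest members carry the identifiers ENSMUSG00000060860.7 (Ube2s), ENSMUSG00000005575.11 (Ube2m) and ENSMUSG00000001403.9 (Ube2c) in the files. Ube2s and Ube2c, which work on the same complex, matched at 30 of the 45 bases, whereas Ube2d3 and Ube2d1 matched at 36. A His-Pro-Asn motif followed by 7 residues and a cysteine was found in 19 of the 34 members with a coding sequence and in 14 of the 23 members called detected below. The detected members without these letters at this spacing were Ube2j2, Ube2v1, Ube2e3, Ube2j1, Ube2q1, Ube2k, Ube2q2, Ube2z and Ube2e1, and nothing about their chemistry follows from that. Ube2v1 is known as a variant that lacks the active-site cysteine.

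Replicate 1 was sequenced 5.09 times as deeply as replicate 2, at 70451042 against 13841487 estimated counts. An entry at 0 counts could still hold up to 3 counts, which is 0.0426 counts-per-million (CPM) at the depth of replicate 1 and 0.217 CPM at that of replicate 2. Levels are given in transcripts-per-million (TPM), as deposited, and intervals cover counting error only. Of 12 erythroid markers 11 reached 1 TPM in both libraries, with a summed level of 231389 TPM in replicate 1 and 86877 TPM in replicate 2; the exception was Epb42. Megakaryocyte markers summed to 5.78 and 11.9 TPM with 2 of 8 detected and Pf4 and Ppbp at 0. None of the 8 neutrophil and monocyte, 8 lymphoid and 4 pluripotency markers was detected, with sums of at most 0.61 TPM and Lyz2, Itgam, Csf1r and Ly6g at 0. With 1 group, no test between conditions was possible, and the smallest p that 2 libraries allow in an exact sign-flip test is 0.5.

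The E2 family was broadly expressed and led in TPM by the mitotic enzyme gene Ube2s. Of the 37 members, 23 (62.2%) had at least 1 TPM in both libraries, called detected here, against 7444 of all 43346 gene entries (17.2%). Among protein-coding entries alone the shares were 23 of 34 members (67.6%) and 7107 of 21474 genes (33.1%). Ube2n and Ube2v2 passed 1 TPM in replicate 1 only, and no member did so in replicate 2 only. By their mean, 10 members lay at or above 100 TPM, 10 between 10 and 100 TPM, 4 between 1 and 10 TPM and 13 under 1 TPM.

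The family took 264794 counts in replicate 1 (0.376% of the library, 95% Wilson interval 0.374 to 0.377%) and 57505 counts in replicate 2 (0.4155%, 0.412 to 0.419%). As a share of TPM this came to 0.328% in replicate 1 and 0.359% in replicate 2, or 0.343 ± 0.0218% (SD, n = 2). The family total thus lay close in both libraries while many single members did not, as given below beside all genes. Over all 37 members the median level was 21.8 TPM in replicate 1, 7.48 TPM in replicate 2 and 27.8 TPM when each member's mean was taken first. A few members held most of the family's TPM: Ube2s alone held 28.2% of it in replicate 1 and 30.45% in replicate 2. The 5 highest members of each library held 68.5% and 65.8%. Ube2s, Ube2m and Ube2c were among them in both libraries, Ube2v1 in replicate 1 alone, and Ube2d2a and Ube2j2 in replicate 2 alone.

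**Figure D1:**
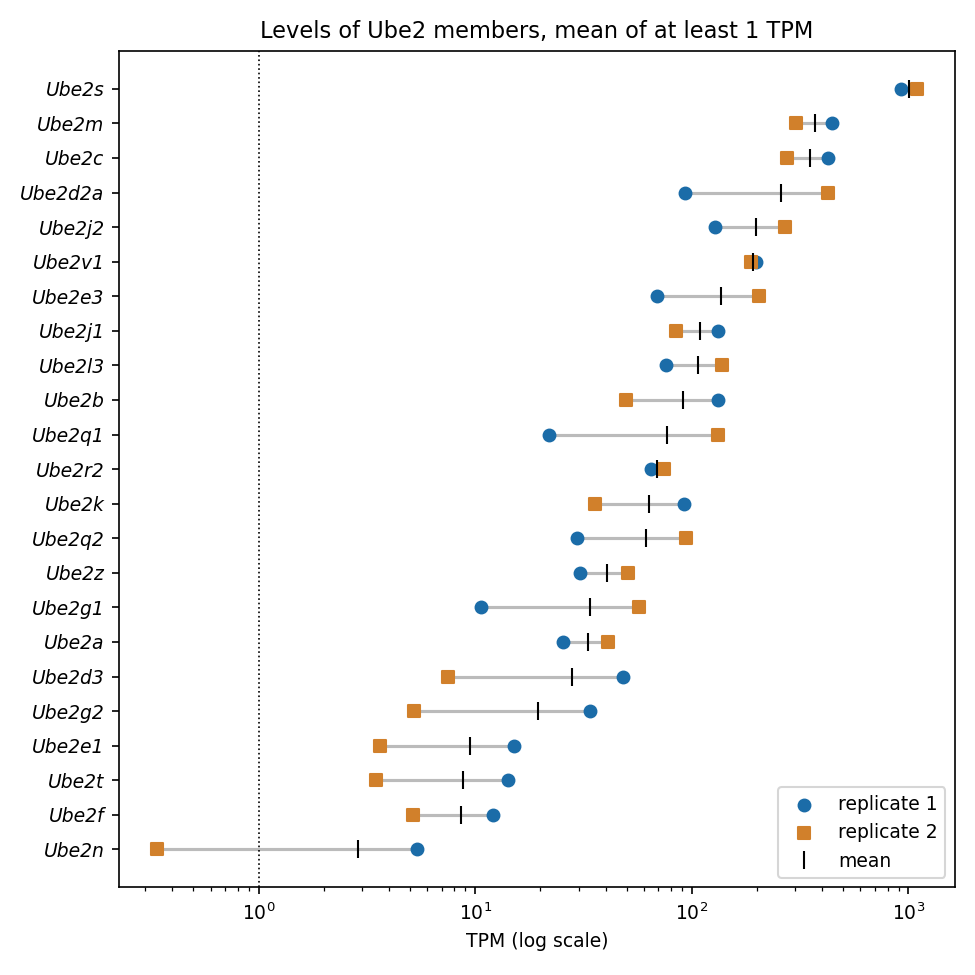
Level of 23 of the 24 Ube2 members with a mean of at least 1 TPM, in TPM on a log scale, with circles for replicate 1, squares for replicate 2 and a tick for their mean; the dotted line marks 1 TPM. Ube2s stands alone at 925 and 1092 TPM, and the ranges of all later neighbours shown overlap.

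Only the first place in the order of TPM was separated by more than the spread between the libraries. Among the 24 members with a mean of at least 1 TPM there were 23 neighbouring pairs, and in 22 the ranges of the 2 libraries overlapped; the exception was Ube2s above Ube2m. Across the 23 detected members, the libraries correlated on log2 of TPM with 1 added (Pearson r = 0.71, Spearman rho = 0.66), a description across genes that share a library and its depth. Of these members 12 were higher in TPM in replicate 1 and 11 in replicate 2. The first place did not hold in counts, which are not scaled by length. There Ube2s led in replicate 1 (45015 counts), but Ube2d2a stood above it in replicate 2 (10725 against 8891 counts).

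The E2s of the anaphase-promoting complex, the E3 ligase that ends mitosis, were the largest role class. Ube2s, which in human cells lengthens chains on the complex's substrates, had 925 TPM in replicate 1 and 1092 in replicate 2 (1008 ± 118.5 TPM, SD, n = 2; 45015 and 8891 counts). It ranked 113 and 121 by TPM among all gene entries of its library. Ube2c, which starts those chains, had 425 and 274 TPM (349.6 ± 106 TPM; 23930 and 2570 counts). Ube2s therefore stood above Ube2c in both libraries, by 2.18 times in replicate 1 and 3.98 times in replicate 2. The class summed to 1349 TPM in replicate 1 and 1367 in replicate 2, which was 39.6 ± 2.16% of the family's TPM, although each gene alone varied more than their sum. In bulk RNA such as this, fewer cells that express a gene and less RNA per cell cannot be told apart.

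Both NEDD8 E2s were detected, at very different levels. Ube2m, a NEDD8-conjugating enzyme whose product activates cullin ligases, had 442 TPM in replicate 1 and 301 in replicate 2 (371 ± 99.65 TPM). Ube2f, the other NEDD8 E2, had 12.01 and 5.16 TPM. In both libraries Ube2m was thus the dominant NEDD8 E2, with 36.8 times the TPM of Ube2f in replicate 1 and 58.3 times in replicate 2. Ube2z, which is charged by the E1 Uba6, had 30.4 and 50.9 TPM. In TPM, Ube2m and Ube2f were thus higher in replicate 1 and Ube2z in replicate 2.

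Among members that start chains with many E3s, close relatives lay in opposite directions between the libraries. Ube2d2a (chr18:35771558-35809494, plus strand), a broad-range E2, had 92.6 TPM in replicate 1 and 423.5 in replicate 2 (258 ± 234 TPM). Its close relative Ube2d3 was higher in replicate 1, with 48.2 TPM against 7.48 TPM in replicate 2. Ube2d2a exceeded Ube2d3 in both, by 1.92 times in replicate 1 and 56.6 times in replicate 2. The coding sequences of this pair match at 86.4% of positions and the proteins at 97.3%. Ube2d1, whose protein matches that of Ube2d3 at 88.4%, had 0 counts in both libraries, as had Ube2d2b and the pseudogene Ube2d4.

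The Ube2e genes, whose proteins carry an extra amino-terminal stretch, also lay in opposite directions. Ube2e3 had 69.0 TPM in replicate 1 and 204 in replicate 2 (136 ± 95.2 TPM), while Ube2e1 had 15.2 and 3.64 TPM. The ratio of Ube2e3 to Ube2e1 was 4.55 in replicate 1 and 55.96 in replicate 2. Ube2e2 had 0 counts in both, although its deposited posterior mean was 0.52 and 2.82 TPM. Ube2l3, an E2 for HECT and RING-between-RING ligases that accept ubiquitin on their own cysteine, had 75.6 and 138 TPM (107 ± 44.3 TPM). Ube2w, which attaches ubiquitin to protein amino termini, had 0.49 and 0.22 TPM. The class of 10 priming and broad-range E2s, 5 of them detected, summed to 301 TPM in replicate 1 and 777 TPM in replicate 2. Ube2l3 was counted in this class, although the ligases it serves set it apart.

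**Figure D2:**
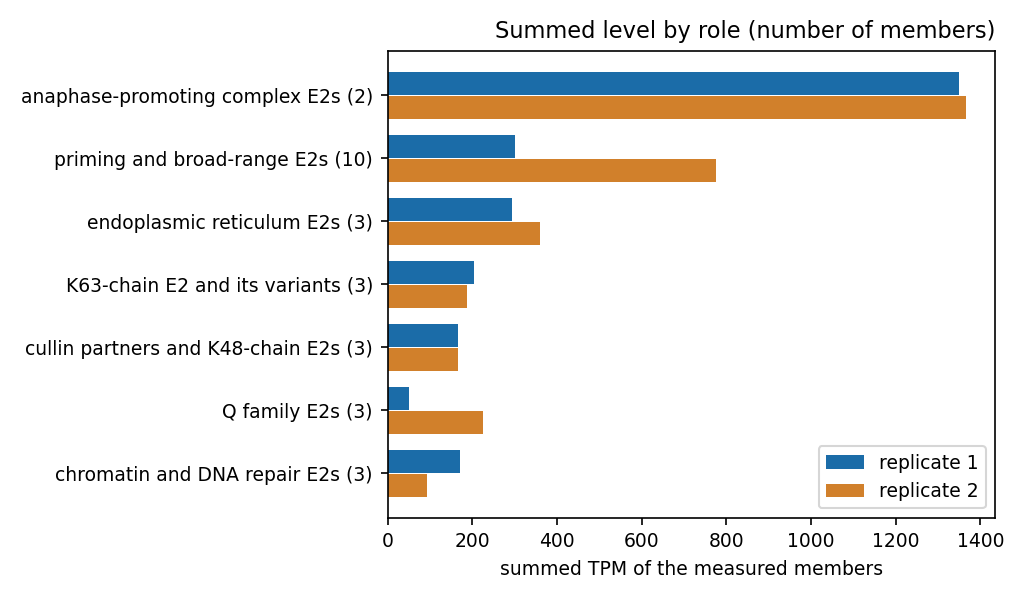
Summed TPM of the measured members of 7 role classes in replicate 1 (blue) and replicate 2 (orange), with the number of members in brackets. The anaphase-promoting complex class is highest in both libraries at 1349 and 1367 TPM, while the priming class has 301 TPM in replicate 1 and 777 TPM in replicate 2.

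The endoplasmic reticulum E2s, which serve the disposal of misfolded secretory proteins, were all detected. Ube2j2 had 127 TPM in replicate 1 and 269.5 in replicate 2 (198.5 ± 100.5 TPM) and Ube2j1 132 and 84.6 TPM (108.5 ± 33.8 TPM). Their order in TPM therefore depended on the library, with a ratio of Ube2j2 to Ube2j1 of 0.963 in replicate 1 and 3.19 in replicate 2. In counts, which are not scaled by length, Ube2j1 was higher in both. It had 30754 counts against 6890 in replicate 1 and 3197 against 1949 in replicate 2. Ube2g2, which works with ligases of the endoplasmic reticulum membrane, had 33.75 and 5.24 TPM. The 3 genes summed to 293.5 TPM in replicate 1 and 359 TPM in replicate 2.

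For K63-linked chains, known for roles in signalling and DNA repair, the catalytic gene and its partner lay far apart. Ube2n, the catalytic E2, had 5.41 TPM in replicate 1 and 0.34 in replicate 2 (1380 and 14 counts). Ube2v1, the inactive variant that binds Ube2n, had 197 and 187 TPM (192 ± 7.06 TPM). Ube2v1 exceeded Ube2n 36.4 times in replicate 1 and 549.9 times in replicate 2, so the direction of this gap was shared and its size was not. Ube2v2, the other variant, had 1.23 TPM (231 counts) in replicate 1 and 0 counts in replicate 2. The Ube2n entry has 3 measured near-identical entries (at least 95% identity over 200 bases or more), Ube2nl among them, and all 3 had 0 counts.

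The cullin and K48-chain class, whose chains mark proteins for the proteasome, summed to 166.8 TPM in replicate 1 and 166.9 TPM in replicate 2, but its members did not stay level. Ube2r2, a relative of Cdc34 that works with cullin ligases, had 64.7 and 74.0 TPM. Ube2k, which builds K48-linked chains, had 91.5 TPM in replicate 1 and 35.7 in replicate 2. Ube2g1, which in human cells extends chains at cullin 4 ligases, had 10.6 TPM in replicate 1 and 57.2 in replicate 2. Ube2k was thus higher in replicate 1 and Ube2g1 in replicate 2, and the differences offset each other in the sum of gene levels. This does not hold for the coding transcripts of Ube2g1, which had 1.40 TPM in replicate 1 and 1.00 in replicate 2, since most of its level lay in a retained-intron form.

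The Rad6 homologs Ube2a and Ube2b, which ubiquitinate histone H2B and the replication clamp with different E3s, also changed their ratio. Ube2b had 132 TPM in replicate 1 and 49.7 in replicate 2, and Ube2a 25.4 and 40.8 TPM. Ube2b was thus 5.20 times as high as Ube2a in replicate 1 and 1.22 times in replicate 2. In transcripts annotated as protein coding the order turned in replicate 2. There Ube2b had 0.17 TPM and Ube2a 40.8 TPM, against 48.9 and 25.4 TPM in replicate 1. The 0.17 TPM rests on 3.17 estimated counts of Ube2b-201, out of 203 for Ube2b in replicate 2. How its reads split between forms there is therefore uncertain. The proteins of Ube2a and Ube2b match at 95.4% and their coding sequences at 77.6%. Ube2t, the E2 of the Fanconi anemia ligase, had 14.1 and 3.47 TPM. Among the Q family genes, whose roles are less well described, Ube2q1 had 21.8 TPM in replicate 1 and 132 in replicate 2 and Ube2q2 29.3 and 93.9 TPM. Both Q genes were higher in replicate 2, and Ube2ql1 had 0 counts in both.

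Several duplicated genes had no reads assigned. Counts were 0 in both libraries for 10 members: Ube2d1, Ube2d2b, Ube2d4, Ube2dnl1, Ube2dnl2, Ube2e2, Ube2nl, Ube2ql1, Ube2u and Ube2uos. This allows up to 0.0426 CPM for each in replicate 1 and 0.217 CPM in replicate 2. Ube2cbp had 0.16 TPM in replicate 1 and 0.54 in replicate 2 (12 and 6 counts). None of the 6 members without a role class was detected. The rule for members goes by symbol alone, so a member such as Ube2cbp need not be an E2 enzyme itself.

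Many measurable E2 members, like many genes in these libraries, lay at least 2-fold apart between the libraries. After scaling by TMM, a between-library normalization, 25 members had a mean of at least 1 CPM, and 16 of them (64%) were at least 2-fold apart, against 4244 of 8884 genes (47.8%). In the direction of replicate 1 these were 10 members, against 29.8% of all genes. In the direction of replicate 2 they were 6 members, against 18% of all genes. The 10 include Ube2v2, which passed the minimum of 1 CPM through replicate 1 alone (2.86 CPM, against 0 in replicate 2). The median size of the log2 ratio was 1.78 in members and 0.95 in all genes, while the signed median was 0.01 in members and 0.20 in all genes. With 1 library on each side no test was made of these distances.

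**Figure D3:**
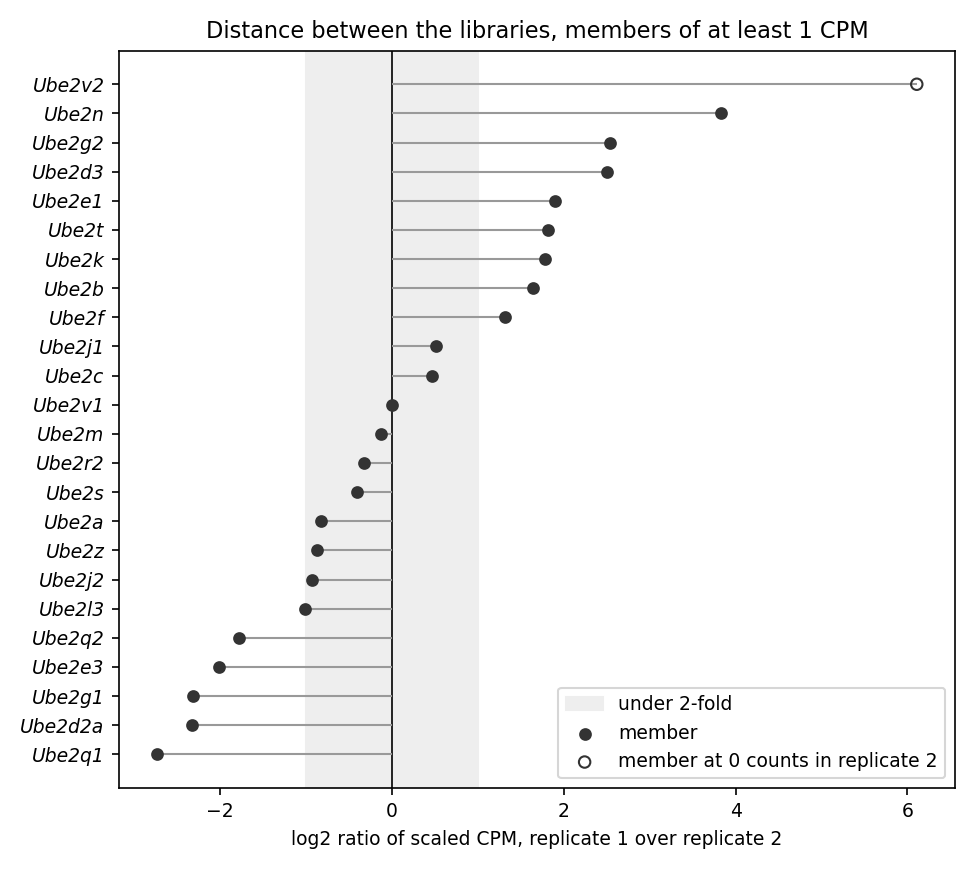
log2 ratio of scaled CPM, replicate 1 over replicate 2, for 24 of the 25 members with a mean of at least 1 CPM; the grey band marks less than a 2-fold distance and the open circle a member at 0 counts in replicate 2. Members run from Ube2q1 at -2.73 to Ube2v2 at 6.11, and 9 lie within the band.

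Ube2g2 (2.54, 5.803-fold) and Ube2d3 (2.50, 5.66-fold) were furthest toward replicate 1 among members of at least 10 CPM, on the log2 scale of replicate 1 over replicate 2. Ube2q1 (-2.73, 6.63-fold), Ube2d2a (-2.32, 4.998-fold) and Ube2g1 (-2.31, 4.97-fold) were furthest toward replicate 2. Below that level Ube2n reached 3.83, and Ube2v2 was at least 11.5-fold higher in replicate 1, set against 3 counts in replicate 2. Members that lay close included Ube2v1 (0.01), Ube2m (-0.13), Ube2r2 (-0.32), Ube2s (-0.41), Ube2c (0.47) and Ube2j1 (0.52). The steadiest members were therefore mostly high ones while members of low count such as Ube2n, Ube2t and Ube2f stood higher in replicate 1. Ube2m had the higher TPM in replicate 1 but a log2 ratio near 0 in scaled CPM, which takes no account of the length of the transcripts described below. Across the 25 members the log2 ratio had a Pearson r of -0.73 with log2 mean CPM, against -0.23 across the 8884 genes. Ube2v2, whose ratio is set against 0 counts in replicate 2, is among the 25. The ratio and the mean come from the same counts, and the shallower library holds few counts of low members. With transcript GC content r was -0.32 over 24 members and -0.26 over 8778 genes, and with log2 length 0.05 and -0.09. The part of depth and GC content in these distances was not tested.

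Near-identical copies of the detected members elsewhere in the genome took few reads where they were measured. Some copies, such as Gm47696 of Ube2d2a, are not among the measured entries, so no reads could be assigned to them. Ube2d2a has a processed pseudogene, Gm9762, that matches it at 100% over 444 bases and held 33.7 counts in replicate 1 and 16.0 in replicate 2, beside 14394 and 10725 counts of Ube2d2a itself. Ube2l3 has 6 such measured entries with 36.04 counts in all in replicate 1 and 0 in replicate 2, beside 12794 and 3832 counts of the gene. Ube2d3 has 3, with 15.0 and 0 counts beside 7916 and 208. Ube2v1 is overlapped by the protein-coding entry Gm20431, which matches it at 100% over 1674 bases. Gm20431 had 0 counts in both libraries, beside 20599 and 3057 counts of Ube2v1. The split between such copies is uncertain, as it rests on how the quantification shared reads. The deposited posterior SD of the count was at most 1.07% of the count in any detected member, reached by Ube2g2.

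In Ube2m and Ube2j2 a different transcript led in each library. Of 16 members with a mean of at least 10 TPM and more than 1 transcript, 14 kept 1 leading transcript across both libraries and 2 (12.5%) did not, against 1238 of 3699 genes (33.5%). In Ube2m, Ube2m-208 led in replicate 1 with 31.5% of the gene's TPM and held 16.2% in replicate 2. Ube2m-201 held 22.85% in replicate 1 and led in replicate 2 with 82.9%. In Ube2j2, Ube2j2-208 led in replicate 1 with 40.1%, and Ube2j2-206 in replicate 2 with 53.7%. The leading transcripts of both genes are annotated as protein coding. In Ube2m the retained-intron transcript Ube2m-206 stood almost level with the leading one in replicate 1, at 30.7%, and was at 0 in replicate 2.

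**Figure D4:**
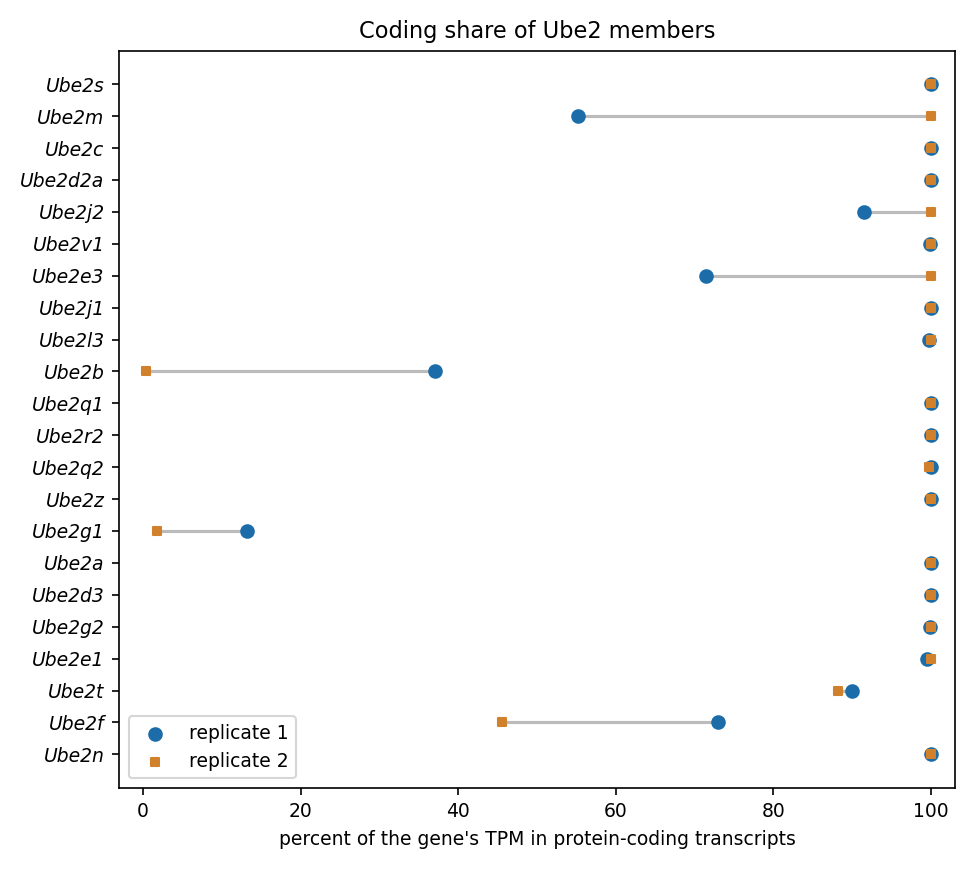
Percent of each gene's TPM assigned to transcripts annotated as protein coding, in replicate 1 (circles) and replicate 2 (squares), for 22 of the 23 members with a mean of at least 1 TPM whose transcripts are typed. Most sit at or near 100% in both libraries; Ube2g1 and Ube2b lie under 50% in both, and Ube2f does so in replicate 2 alone.

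Part of the RNA assigned to E2 genes was not annotated as coding. Protein-coding transcripts held 86.85% of the family's TPM in replicate 1 and 95.4% in replicate 2, and transcripts with a retained intron 7.47% and 1.73%. Of 23 members whose transcripts are typed, 16 had at least 90% in coding transcripts in both libraries, Ube2s and Ube2c at 100% among them. The same coding and retained-intron shares over all genes are not given here. Whether the family differs from other genes in them is therefore unknown. Ube2g1 stood at the other end: its retained-intron transcript held 86.8% in replicate 1 and 98.25% in replicate 2. Its higher gene level in replicate 2 lay in that form. In Ube2b a transcript without a reading frame, Ube2b-203, led with 62.4% and 76.5%. Coding forms of Ube2b held 37.04% in replicate 1 and 0.342% in replicate 2, where the gene had only 203 counts. These are shares of TPM, which is scaled by length. In counts of replicate 1, Ube2b-203 had 2068, against 1194 and 1007 for the coding forms Ube2b-202 and Ube2b-201.

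The retained-intron share of Ube2m was 44.5% in replicate 1 and 0 in replicate 2, which left 244 and 301 TPM in coding forms. That of Ube2e3 was 28.5% in replicate 1 and 0 in replicate 2, and that of Ube2f 27.1% and 54.5%. Retained-intron transcripts were thus not spread evenly over the members, and neither library was higher in all of them. The leading transcript of Ube2k, with 55.2% and 86.1%, has no type in the annotation used.

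The genes around the E2s in the cascade were mostly detected. All 4 ubiquitin precursor genes were. Ubb, which encodes ubiquitin as repeats, led with 1963 TPM in replicate 1 against 211 TPM in replicate 2, and Rps27a, a fusion with a ribosomal protein, was lowest with 23.9 and 3.79 TPM. Both were higher in replicate 1. The summed E2 family stood at 3279 TPM in replicate 1 and 3587 TPM in replicate 2. TPM is a share of the library, and the 12 erythroid markers took 231389 TPM in replicate 1 and 86877 TPM in replicate 2. How far this bears on the order of the 2 family totals was not tested. Ubiquitin coding sequences are near-identical between the precursor genes, so the split of reads among them is uncertain.

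Of 9 E1 genes 6 were detected. Uba1, the main ubiquitin E1, had 168 TPM in replicate 1 and 38.7 in replicate 2, Uba7 had 127 and 79.2 TPM, and Atg7, an autophagy E1, had 31.7 and 101 TPM. Uba6 was lowest at 0.28 and 0 TPM, although Ube2z, the E2 it charges, was detected. The NEDD8 E1 genes Nae1 (5.03 and 0.71 TPM) and Uba3 (1.29 and 0.46 TPM) fell under 1 TPM in replicate 2, while Ube2m was among the 3 highest members by mean. Of the E1 genes 5 of 8 tested were at least 2-fold apart, against 47.8% of all genes. So few genes do not allow a difference from that share to be read.

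Of 10 ubiquitin-like modifiers 8 were detected, led by Fau (2612 and 2248 TPM), whose product is also a ribosomal protein, and including Sumo2 (240.1 and 162 TPM), with Isg15 lowest (0.05 and 0 TPM). Nedd8 itself had 130.2 TPM in replicate 1 and 12.3 in replicate 2. Of 6 E2 genes outside the Ube2 names 4 were detected, led by Cdc34, the cullin E2, with 219.9 TPM in replicate 1 and 374.9 TPM in replicate 2. Birc6 had 16.9 and 40.4 TPM, Ufc1, the UFM1 E2, 37.5 and 6.46 TPM, and Cdc34b was lowest at 0.05 and 0 TPM. Cdc34 was thus higher than Ube2r2 in both libraries.

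Of 30 E3 and partner genes 26 were detected, with a median of the mean level of 20.2 TPM. The highest were Cdc20 (273 and 222 TPM), a coactivator of the anaphase-promoting complex, Anapc11 (278 and 159 TPM), its RING subunit, and Syvn1 (97.6 and 162 TPM), a ligase of the endoplasmic reticulum. Fancl, the Fanconi ligase that works with Ube2t, was lowest at 0.61 and 0.08 TPM. Other genes of the anaphase-promoting complex on the list were lower, with Fzr1 at 87.15 TPM in replicate 1 and 46.9 TPM in replicate 2 and Anapc2 at 25.9 and 10.4 TPM. Of the 29 tested, 11 were at least 2-fold apart, against 16 of 25 E2 members and 47.8% of all genes.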

How the data were processed

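Sequenced were 2 polyadenylated RNA libraries of 1 group of G1E-ER4 cells. The build is mm10 per the labels, and the accompanying deposited text names GENCODE M4 and transcriptome alignments as the base of the values. Aligner, quantification tool and use of strand were not given in the sources used here. As deposited, the gene and transcript tables give estimated counts, which can be fractional, as well as TPM and FPKM, both scaled by effective length by the authors. The deposited transcript tables add the percent of a gene's TPM that a transcript holds. Posterior means and SDs are deposited for the estimated counts, and posterior means for TPM. FPKM served for 1 alternative minimum only.

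Symbols, gene types and positions came from GENCODE M21 on the same assembly by identifier without version, which named 42462 of 43346 gene entries. The members and gene lists were chosen with earlier results of these data known. A level is the mean and SD of 2 TPM values. For the distance between libraries, estimated counts were rounded, scaled with library factors of 1.15 and 0.871 (TMM, edgeR 4.0.16) and compared as log2 ratios with a prior count of 0.5, for genes with a mean of at least 1 CPM; at least 2-fold was called, without a test. The step was tested on simulated counts that held known changes and counting error only. That test does not cover the wider spread between these 2 libraries. Near-identical entries were found with BLAST 2.17.0 at 95% identity over at least 200 bases, and coding sequences came from GENCODE M21 transcripts. Protein identity was computed from the translated coding sequences, since no protein table was used here. Wilson intervals are at 95%, and the limit of a count of 0 is 3 counts.

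The members named are the 10 highest, the highest of each role, the 3 furthest apart in each direction with a mean of at least 10 CPM, all at 0 counts and the others by their values; of each pathway list, the 3 highest and the lowest are named. A few genes that this rule takes in are not reported here or plotted, though counts and totals over the family and lists include them. Nedd8, Nae1, Uba3, Fzr1 and Anapc2 were named after their values were seen. Alternatives were other minimum levels, posterior means, shares of counts, DESeq2 1.42.0 size factors, total counts, other prior counts and folds, and leaving out a library. The software was R 4.3.3 and Python 3.11.15, using matplotlib 3.10.9, scipy 1.17.1, pandas 2.3.3 and numpy 2.4.6.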

Additional observations from a re-analysis of the deposited data

Results flagged for a closer look

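Ube2d-ps, a pseudogene of the Ube2d genes that the rule for members leaves out, carried reads. It had 471 counts in replicate 1 (4.04 TPM) and 13 counts in replicate 2 (0.68 TPM), both above the limit of 3 counts that a count of 0 allows. What singled it out is a signal in an entry that no comparison above uses. The member Ube2d4, a processed pseudogene near-identical to Ube2d-ps, had 0 counts in both libraries.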

How the results depend on the processing

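The number of detected members, 23, ranged from 21 (minimum of 5 TPM) to 26 (any level above 0), and was 23 without replicate 1 and 25 without replicate 2. The family's share of TPM, 0.343%, was 0.396% as a share of counts, 0.4096% without mitochondrial and adult globin genes and 0.367% with Ube2o, Ube2h and Ube2l6 included; leaving out 1 library gave 0.328 to 0.359%. The median over all members, 27.8 TPM, was 69.3 TPM among members with a mean of at least 1 CPM, and leaving out 1 library gave 7.48 to 21.8 TPM, the lower value without replicate 1. For the narrower set this follows from dropping members at or near 0; for the others the cause was not tested. The 16 members at least 2-fold apart numbered 12 of 21 at a mean of at least 10 CPM (6 higher in each library; 43.9% of all genes there), 15 of 25 with total counts (50.4% of all genes) and 19 of 25 at 1.5-fold (67.7% of all genes). The median log2 ratio of all genes was 0.20 after TMM, 0.13 with DESeq2 size factors and 0.59 with total counts. The same transcript led in 14 of 16 members, in 16 of 19 at 1 TPM and in 11 of 13 at 50 TPM. With 2 libraries, neither of these counts has a value without 1 of them. No paired analysis was possible because the labels give 1 group. Depth limits members of a few counts in replicate 2, such as Ube2n, Ube2w and Ube2cbp.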
